A study of Mus musculus with 15 samples.

Results

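The question addressed here is whether the loss of Tet2 and the mutation Nras(G12D) act on gene expression independently of each other in blood stem and progenitor cells that have not become leukemic. The measure is the interaction, computed per gene as the mean log2 level in Tet2-/- Nras(G12D) minus that in Tet2-/- minus that in Nras(G12D) plus that in wild type (WT). It is 0 where the double mutant stands at the level that the changes of both single mutants give when their fold changes are multiplied. A value above 0 places the double mutant above that additive level and a value below 0 places it below. The comparison uses 12 of the 15 libraries, chosen by genotype label alone, and the 13710 of 44827 genes with a log2 CPM of at least 0 in 3 or more of the 12. CPM relates a gene's count to the scaled size of its library.

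The 4 genotypes were WT, Tet2-/-, Nras(G12D) and non-leukemic Tet2-/- Nras(G12D), called the double mutant from here on, with 3 libraries each, all from C57BL/6 mice. The mutations were conditional and restricted to hematopoietic tissue, and an age of 6 months is stated for the animals whose DNA methylation was studied. No source used here names the Cre driver, its timing, or whether the libraries of a genotype came from separate animals. The p-values therefore measure only the spread between these libraries. Each mutant genotype held libraries with and without Y-linked transcripts, as given below, and such libraries cannot share an animal. For WT, and for libraries alike in this respect, the spread may be technical. RNA came from LSK cells, the lineage-negative, Sca1-positive and cKit-positive fraction of bone marrow, sorted from femurs, tibiae and iliac crests, and went into stranded mRNA libraries.

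TET2 is an enzyme that oxidises 5-methylcytosine and so opens the way to loss of DNA methylation at enhancers and other regulatory sites, and its gene is often mutated in clonal hematopoiesis and myeloid leukemia. NRAS is a small GTPase that relays signals from growth factor and cytokine receptors to the kinases RAF, MEK and ERK, and the G12D change keeps it in the active, GTP-bound state. ERK in turn switches on immediate early genes such as Fos, Jun and Egr1, which are transcribed within minutes of a growth factor, of stress or of cell handling, and are then shut off by feedback.

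Total counts ran from 22733189 to 43562909 per library. Kit, the receptor used in the sort, stood at 434 to 2910 CPM, Cd34 at 969 to 2012 CPM and Ly6a, which encodes Sca1, at 59.3 to 198 CPM, while the T cell gene Cd3e reached at most 0.680 CPM. The neutrophil marker list summed to 149.9 to 284 CPM in WT, 231 to 457 in Tet2-/-, 168 to 495 in the double mutant and 124 to 4740.2 in Nras(G12D), the highest value being library 2 of that genotype. Transcripts of the Y chromosome were present in Tet2-/- 1 and 2, Nras(G12D) 2 and double mutant 1, where Ddx3y stood at 259, 179, 91.5 and 175 CPM, and Ddx3y was at most 0.457 CPM in the other 8 libraries. On the first principal component of all tested genes, which held 43.5% of the variance, Tet2-/- 1 and 3 stood at 104.9 and 89.0 and Tet2-/- 2 at 32.2, within reach of WT 1 at 25.2.

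The mutated genes themselves were measured over their whole length, so that their counts do not show the deletion or the base change. Tet2 stood at 65.2, 50.7 and 61.02 CPM for WT, 35.9, 59.8 and 49.3 for Tet2-/-, 56.8, 45.2 and 75.1 for Nras(G12D) and 62.6, 56.3 and 47.9 for double mutant libraries. These ranges overlapped, and the Tet2 interaction was 0.25 ± 0.35 (limma, log2 ± standard error, unadjusted p = 0.494), with its sign reversed under median centring, quantile normalization and in the libraries without Y-linked transcripts. Nras stood at 179, 172 and 167 CPM for WT, 247, 185 and 282 for Tet2-/-, 153, 199.6 and 191 for Nras(G12D) and 159, 157 and 145 for double mutant libraries. Its 3 double mutant values included the lowest of all 12, next to Nras(G12D) 1, and its interaction was -0.67 ± 0.26 (limma, unadjusted p = 0.0257, adjusted p = 0.161).

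No gene passed an adjusted p of 0.05 for the interaction (limma, Benjamini-Hochberg, 0 of 13710, 0%). The lowest adjusted p was 0.0714, shared by Egr1, the sulfotransferase gene Chst1 and the pseudogene Tdpx-ps1, the 3 genes below 0.1, and 3361 genes were below 0.2. At an unadjusted p below 0.05 there were 3402 genes, 24.8% of those tested, of which 2314 (16.9%) stood above the additive level and 1088 (7.94%) below it. Limma voom on the recovered counts also gave 0 calls, whereas voom with sample quality weights gave 5853 and array quality weights 6607. The direction of these 3402 estimates hardly depended on the scale, since 1 of them had the other sign when the 4 group means were combined in CPM in place of log2. The values of single genes below are therefore given as measurements. None of them is an interaction call as reported, with all 12 libraries, the deposited scaling, equal weights and an intensity trend. Centring each library on its median gave 4 calls, and eBayes without trend gave 1, as named in a later section.

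The interaction can also be read as a difference between the effect of Nras(G12D) with and without Tet2. Against WT, Nras(G12D) alone gave 0 calls (0%; limma, 861 genes at an unadjusted p below 0.05, or 6.28%; voom with sample quality weights 1). Against Tet2-/-, the double mutant gave 4995 calls, 36.4% of tested genes, with 3038 genes higher (22.2%) and 1957 lower (14.3%). That count ran from 1159 to 6634 when 1 library was left out, falling to 1159 and 1719 on leaving out Tet2-/- 1 and 3, and to 1641 and 1198 on leaving out double mutant 2 and 3. Of the 4995 genes, 3729 had an estimate of the same sign in Nras(G12D) against WT. The share of same-sign estimates over all tested genes was not computed, so this count has no background beside it. An interaction at an unadjusted p below 0.05 was found in 2756 of the 4995, against 24.8% of all tested genes. The difference that chose the 4995 is part of the interaction, so an overlap is built in. None of the 4995 passed the test of the interaction itself, whose lowest adjusted p among them was 0.0714. Across the 13710 genes the Nras(G12D) effects with and without Tet2, which share no library, correlated with a Pearson r of 0.286 and a Spearman coefficient of 0.394, as a description over genes that are not independent of each other. Their standard deviations over genes were 1.12 without Tet2 and 0.593 with it.

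**Figure D1:**
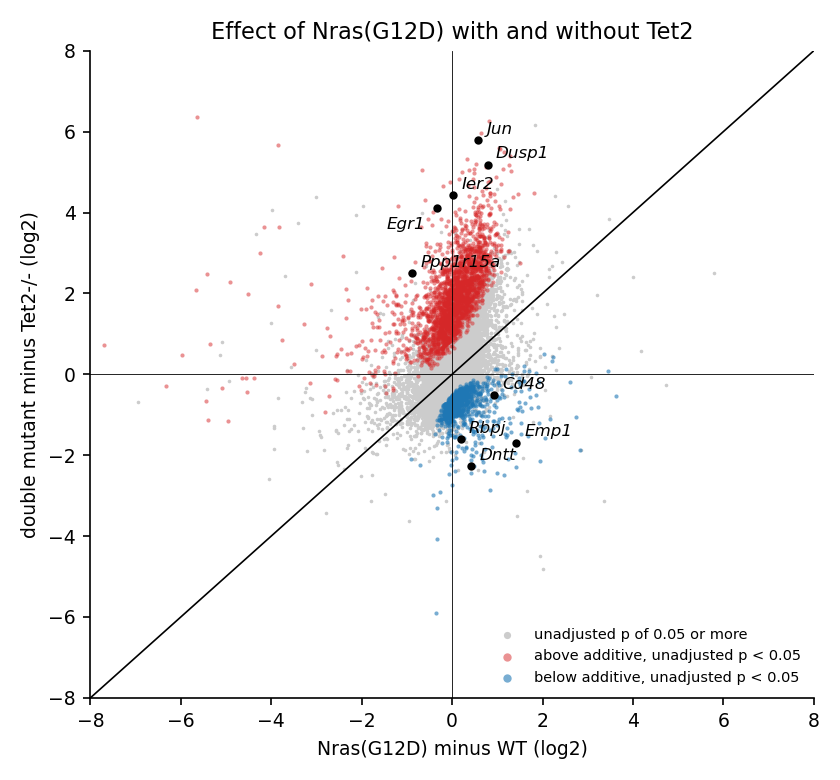
Change with Nras(G12D) in Tet2-intact cells (x axis, log2, Nras(G12D) minus WT) and in Tet2-null cells (y axis, log2, double mutant minus Tet2-/-), 1 point per tested gene, with the diagonal where the interaction is 0. The vertical spread (SD 1.12) is wider than the horizontal one (0.593), the 2314 red points lie above the diagonal and the 1088 blue points below it, and Jun, Dusp1, Ier2 and Egr1 lie far above it.

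The same interaction value can arise in several ways, so each gene was sorted by which mutants stood at least 1 log2 unit away from WT. Among the 2314 genes above the additive level, the most frequent form was a gene away from WT in Tet2-/- alone, with 865 genes (37.4%, against 9.83% of all tested genes). In these the double mutant was within 1 log2 unit of WT while Tet2-/- was not. A further 420 genes (18.2%, against 4.43%) were away in Tet2-/- and in the double mutant, and 298 (12.9%, against 6.91%) in the double mutant alone. Among the 1088 genes below the additive level, 912 (83.8%, against 72.8%) were not that far from WT in any mutant, 50 (4.60%) were away in Tet2-/- alone and 45 (4.14%) in the double mutant alone. These shares describe the estimates that chose the genes and carry no test.

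The immediate early genes stood high in the double mutant and, by their medians, near WT in both single mutants. Of the 20 tested list members, 12 were above the additive level at an unadjusted p below 0.05 (60%, against 16.9% of tested genes). None was below, against 7.94%, and 19 estimates were above 0 (53% of all tested genes). In 15 of the 20 all 3 double mutant libraries exceeded the other 9, which held for 2.33% of all tested genes. The median interaction was 2.15, against 0.08 over all tested genes, and the medians against WT were 0.18 for Tet2-/-, 0.49 for Nras(G12D) and 2.56 for the double mutant. Members differed behind these medians. Of the 20, 6 were away from WT in the double mutant alone (6.91% of all tested genes). A further 6 were away in Tet2-/- and the double mutant (4.43%), 3 in all mutants (2.2%) and 1 in Tet2-/- alone (9.83%). In 9 the Tet2-/- mean was below WT, and 8 of these 9 were above the additive level at an unadjusted p below 0.05. A low Tet2-/- mean raises the interaction by its definition. The summed level of the list was 468 to 645 CPM in WT, 821 to 992 for Tet2-/-, 629.6 to 901 for Nras(G12D) and 3293 to 5408 for the double mutant. The list was chosen with earlier results of these data known, so its position is a description.

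Egr1, a zinc finger transcription factor downstream of ERK, stood at 5.95, 12.2 and 8.13 CPM for WT, 18.8, 13.4 and 4.18 for Tet2-/-, 6.42, 5.94 and 7.56 for Nras(G12D) and 181, 189 and 163 for double mutant libraries. The 3 double mutant values were close together and far above the other 9. The additive level was 8.05 CPM and the geometric mean observed was 177 CPM, 22.02 times as high, an interaction of 4.46 ± 0.64 (limma, adjusted p = 0.0714, n = 3 per group). Jun, a subunit of the AP-1 transcription factor, stood at 15.02, 57.8 and 33.7 CPM for WT, 11.98, 39.9 and 9.44 for Tet2-/-, 47.1, 53.7 and 38.4 for Nras(G12D) and 379, 1230.0 and 1627 for double mutant libraries. Its lowest double mutant library was the first, which was still above the other 9. The Jun interaction was 5.21 ± 0.91 (limma, adjusted p = 0.128).

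Dusp1, a phosphatase that switches off MAP kinases, followed the same pattern at 5.49, 12.7 and 7.10 CPM for WT, 5.82, 8.21 and 5.93 for Tet2-/-, 13.9, 15.96 and 11.4 for Nras(G12D) and 69.5, 408 and 487 for double mutant libraries. Its interaction was 4.40 ± 0.84 (limma, adjusted p = 0.14), and again double mutant 1 was the lowest of its group without reaching the other genotypes. Ier2, an immediate early gene of less known function, stood at 39.5, 114 and 80.4 CPM for WT, 13.6, 58.01 and 8.93 for Tet2-/-, 79.02, 139 and 34.9 for Nras(G12D) and 389, 396 and 455 for double mutant libraries, an interaction of 4.40 ± 0.92 (adjusted p = 0.14). Here 2 of the 3 Tet2-/- libraries lay below WT, so that part of the distance came from the low Tet2-/- mean. Junb, a further AP-1 subunit named after its values were seen, had the same shape, with 14.1, 63.8 and 8.93 CPM in Tet2-/- and 282, 271 and 319 CPM in the double mutant (interaction 3.69 ± 0.86).

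Fos differed from these in one respect. It stood at 29.6, 39.6 and 30.5 CPM for WT, 109, 108 and 88.9 for Tet2-/-, 47.7, 16.3 and 155 for Nras(G12D) and 466, 745 and 955 for double mutant libraries. Tet2-/- alone was already above every WT library, so the additive level was 152 CPM and the interaction 2.19 ± 0.84 (limma, unadjusted p = 0.0229, adjusted p = 0.156), smaller than that of Egr1 or Jun although the double mutant level was of the same order. Btg2, Klf6 and Fosl2 were the members nearest the additive level. Btg2 had an interaction of -0.29 ± 0.38, with the other sign on the CPM scale. In it the double mutant stood at 355, 204 and 211 CPM and Tet2-/- at 175, 157 and 262 CPM, against 78.4, 65.4 and 73 in WT.

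**Figure D2:**
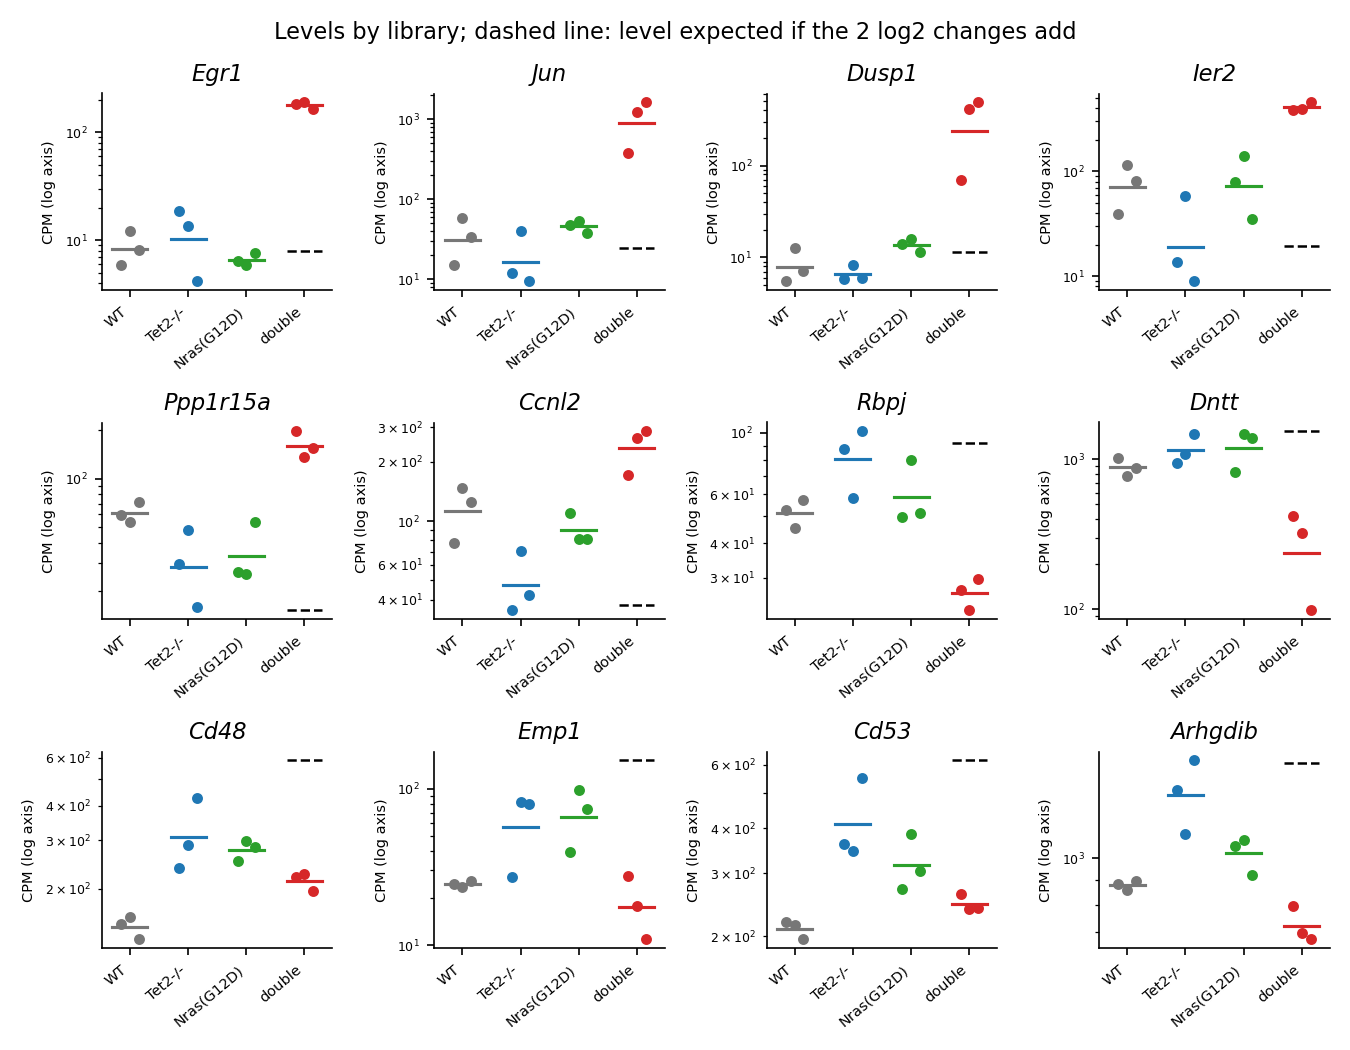
Level of 12 genes in each of the 12 libraries (CPM, log axis, points, replicates 1 to 3 from left to right), with the geometric mean of each genotype as a line and the additive level of the double mutant as a dashed line. In the first 6 genes the double mutant points lie above the dashed line and in the last 6 below it. For Egr1 the dashed line is at 8.05 CPM and the points are at 181, 189 and 163 CPM.

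Promoter sequence was examined because these genes stood together. In RefSeq (GRCm38.p6) 9786 tested genes had a window from 250 bases before to 50 after the start of transcription. The cyclic AMP response element TGACGTCA, bound by CREB and ATF factors and a known element of many immediate early genes, was searched on both strands. It lay in 3.24% of all windows, in 2 of 17 immediate early windows (11.8%), in 3.59% of windows of the genes above the additive level and in 2.17% of those below. The 2 exact matches were in Dusp1, starting 143 bases before the start of transcription, and in Ppp1r15a, 12 bases before it. The stretches below show them in capitals next to Jun and Fos, which hold no exact match in their windows. Each stretch has 120 bases, written 5′ to 3′ on the strand of the gene.
Dusp1, chr17:26508506-26508625, minus strand: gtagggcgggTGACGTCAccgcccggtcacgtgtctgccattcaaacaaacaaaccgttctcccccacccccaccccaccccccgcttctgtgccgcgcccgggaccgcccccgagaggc
Ppp1r15a, chr7:45526269-45526388, minus strand: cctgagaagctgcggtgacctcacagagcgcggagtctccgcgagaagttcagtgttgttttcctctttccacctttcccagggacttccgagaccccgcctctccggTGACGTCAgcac
Jun, chr4:95052223-95052342, minus strand: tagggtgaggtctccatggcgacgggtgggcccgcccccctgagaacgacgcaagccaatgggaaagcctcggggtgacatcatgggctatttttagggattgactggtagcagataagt
Fos, chr12:85473770-85473889, plus strand: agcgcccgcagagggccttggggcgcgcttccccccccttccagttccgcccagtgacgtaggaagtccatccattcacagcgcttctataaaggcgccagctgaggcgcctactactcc
A match is a string of letters in a window and shows no binding.

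Several other genes had the smallest p-values above the additive level. Ppp1r15a, which encodes the GADD34 subunit that lets stressed cells resume translation, stood at 59.4, 53.7 and 72.01 CPM for WT, 29.4, 47.7 and 15.98 for Tet2-/-, 26.4, 25.5 and 53.98 for Nras(G12D) and 196, 136 and 155 for double mutant libraries (interaction 3.40 ± 0.54, limma, adjusted p = 0.11). Both single mutant means were below WT and the double mutant was above the other 9 libraries. Ccnl2, a cyclin that takes part in splicing, stood at 77.2, 147 and 125 CPM for WT, 35.3, 70.3 and 42.3 for Tet2-/-, 110.0, 81.1 and 80.8 for Nras(G12D) and 172, 264 and 285 for double mutant libraries (interaction 2.64 ± 0.45, adjusted p = 0.122). E4f1, a zinc finger factor linked to p53, and Scarf1, a scavenger receptor, had interactions of 2.76 ± 0.55 and 2.51 ± 0.49, each with all 3 Tet2-/- libraries below the lowest double mutant library. In Scarf1 the double mutant, at 68.9, 67.7 and 68.5 CPM, lay within the WT range of 41.8, 67.5 and 74.9 CPM.

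Genes of the unfolded protein response, which restore folding in the endoplasmic reticulum, had another form. By their medians they stood low in Tet2-/- and near WT in the double mutant. Of 18 tested members 10 were above the additive level at an unadjusted p below 0.05 (55.6%, against 16.9% of tested genes). There was 1 below (5.56%, against 7.94%), and the median interaction was 1.26. Of the 18, 9 were away from WT in Tet2-/- alone (9.83% of all tested genes) and 8 in no mutant (72.8%). The summed level was 5184 to 5662 CPM in WT, 3971 to 4477 for Tet2-/-, 3630.1 to 5928 for Nras(G12D) and 4391 to 5153 for the double mutant. On that sum the double mutant was below every WT library and overlapped Tet2-/-. The medians against WT were -0.91 for Tet2-/-, -0.25 for Nras(G12D) and -0.14 for the double mutant. Ern1, the IRE1 sensor of the pathway, stood at 98.8, 89.9 and 109 CPM for WT, 29.6, 32.3 and 36.6 for Tet2-/-, 66.7, 58.9 and 66.03 for Nras(G12D) and 45.2, 98.1 and 62.6 for double mutant libraries (interaction 1.63 ± 0.36, limma, adjusted p = 0.14). All 3 Tet2-/- libraries lay below every other library. Xbp1, the transcription factor activated by IRE1, stood at 77.1, 103 and 78.7 CPM for WT, 18.7, 31.8 and 26.2 for Tet2-/-, 92.3, 167 and 43.3 for Nras(G12D) and 80.4, 199 and 196 for double mutant libraries, an interaction of 2.52 ± 0.65. Atf6, a sensor in a parallel branch, was the member below the additive level, at -0.88 ± 0.37.

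The members of this list did not stand together in every respect. The endoplasmic reticulum stress element, CCAAT followed by 9 further bases and CCACG, is the known binding site of ATF6 with NF-Y, and it was added to the search after the values were seen. It lay in 6 of 16 windows of the list (37.5%), against 17 of 9786 windows (0.174%). Its CCAAT part alone lay in 13 of 16 (81.2%), against 38.8%. Creld2 and Dnajc3, whose products assist folding, carried it and stood above the additive level at 2.86 ± 0.73 and 1.72 ± 0.56. Hspa5 and Calr, abundant chaperones, carried it too and stood at 0.70 ± 0.37 and -0.22 ± 0.28, with unadjusted p-values of 0.0835 and 0.452 (limma), and the other carriers Pdia6 and Hsp90b1 stood at -0.44 ± 0.30 and -0.30 ± 0.33. The element therefore lay in members with and without a distance from the additive level. Capitals mark the CCAAT and CCACG ends of the element, or their reverse complement, in 4 of these promoters.
Creld2, chr15:88819510-88819629, plus strand: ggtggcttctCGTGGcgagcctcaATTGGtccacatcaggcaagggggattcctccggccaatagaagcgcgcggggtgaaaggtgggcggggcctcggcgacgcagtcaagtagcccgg
Dnajc3, chr14:118937812-118937931, plus strand: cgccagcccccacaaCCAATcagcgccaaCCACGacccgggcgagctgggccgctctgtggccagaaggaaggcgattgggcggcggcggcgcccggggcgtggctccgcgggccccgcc
Hspa5, chr2:34771970-34772089, plus strand: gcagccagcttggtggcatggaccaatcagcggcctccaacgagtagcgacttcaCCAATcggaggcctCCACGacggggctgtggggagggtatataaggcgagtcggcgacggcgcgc
Calr, chr8:84846984-84847103, minus strand: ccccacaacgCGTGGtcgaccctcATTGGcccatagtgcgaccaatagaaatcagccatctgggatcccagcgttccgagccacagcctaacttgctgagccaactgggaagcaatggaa
Creld2 stood at 25.2, 50.2 and 28.7 CPM for WT, 4.12, 13.9 and 6.89 for Tet2-/-, 30.2, 57.1 and 19.9 for Nras(G12D) and 29.02, 70.4 and 71.1 for double mutant libraries, so that its Tet2-/- libraries were below the other 9.

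Genes of the RAS route itself were nearer to the background. Of 31 tested RAS pathway genes 8 were above (25.8%, against 16.9% of all tested genes) and 2 below (6.45%, against 7.94%) at an unadjusted p below 0.05. Their median of 0.59 became 0.16 with median centring and 0.24 after quantile normalization. Map2k1, which encodes MEK1, stood at 32.4, 62.95 and 52.8 CPM for WT, 11.8, 34.5 and 13.6 for Tet2-/-, 42.6, 108 and 28.4 for Nras(G12D) and 61.8, 107 and 98.9 for double mutant libraries (interaction 2.20 ± 0.72, limma, unadjusted p = 0.00982). Double mutant 1 lay within the WT range, and all 3 double mutant libraries lay below Nras(G12D) 2. Map2k2, which encodes MEK2, had an interaction of 2.48 ± 0.83 and Mras, a RAS relative, of 2.67 ± 0.59, while Nras and the exchange factor gene Rasgrp4 were the 2 below. Of 20 ERK output genes 6 were above (30%) and 1, Emp1 at -3.11 ± 0.66, was below (5%). Their median of 0.77 became 0.34 with median centring, 0.29 after quantile normalization and 0.17 after the correction for GC content and length. Apart from Egr1, Fos, Fosl1 and Ier3, which are immediate early genes too, those above were Dusp4 (2.32 ± 0.93) and Spry1 (1.34 ± 0.61), both feedback inhibitors. Of the classic feedback genes Dusp6, Spry2, Spry4, Etv4 and Etv5, none was at an unadjusted p below 0.05, with Dusp6 at 1.02 ± 0.82.

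Among transcription factors of stem cell self-renewal, 11 of 22 were above the additive level (50%, against 16.9% of all tested genes). There were 2 below (9.09%, against 7.94%), and the list median was 0.90. Mef2c, the member with the smallest p, was 1 of the 2 below, at -1.36 ± 0.32. In all 11 above, the Tet2-/- mean was below that of WT. A low Tet2-/- mean raises the interaction by its definition, so this describes the estimates that chose these genes. Spi1, the myeloid factor PU.1, stood at 43.9, 102 and 78.3 CPM for WT, 14.7, 53.99 and 19.4 for Tet2-/-, 94.96, 197 and 36.6 for Nras(G12D) and 126, 215 and 235 for double mutant libraries (interaction 2.58 ± 0.85). Nras(G12D) 2 reached the double mutant range, and that library also carried the highest neutrophil marker sum, whose part in the result was not tested. Hoxa9 and Hoxa7, homeobox genes of immature cells, had interactions of 1.02 ± 0.40 and 1.01 ± 0.45. Gata2, a zinc finger factor of stem cells, stood at 92.4, 154 and 143 CPM for WT, 54.6, 93.3 and 53.2 for Tet2-/-, 182, 219 and 90.7 for Nras(G12D) and 244, 291 and 294 for double mutant libraries, above the other 9 libraries, with an interaction of 1.81 ± 0.47 (limma, adjusted p = 0.14). Of the 21 tested stem cell marker genes 4 were above the additive level (19%, against 16.9%) and none below, and Mecom, Procr and Vwf were not at an unadjusted p below 0.05.

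Of the histone cluster genes 10 of 15 were above (66.7%, against 16.9% of all tested genes) and 1 below (6.67%, against 7.94%). Their median interaction was 2.30, with medians against WT of -1.33 for Tet2-/-, 0.42 for Nras(G12D) and 0.95 for the double mutant. Hist1h1c, a linker histone, stood at 14.4, 34.7 and 23.5 CPM for WT, 5.31, 17.7 and 4.69 for Tet2-/-, 29.3, 46.3 and 14.03 for Nras(G12D) and 81.5, 66.7 and 84.9 for double mutant libraries (interaction 3.11 ± 0.75, limma, adjusted p = 0.14). Core histone genes have near-identical copies and mostly lack poly(A) tails, so their counts in mRNA libraries are uncertain. Genes that mark DNA replication stood the other way, with 4 of 20 below (20%, against 7.94%) and 1 above (median -0.49). Of 20 mitosis genes 3 were above (15%, against 16.9%) and none below, with a median of 0.14 whose sign changed under 7 settings.

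Of 16 genes for JAK, STAT, SOCS and PIM proteins, which carry or restrain cytokine signals, 6 were above (37.5%, against 16.9% of all tested genes) and none below (median 1.11). In all 6 the Tet2-/- mean was below that of WT, which raises the interaction by its definition. Of the 16, 3 were away from WT in Tet2-/- alone (9.83% of all tested genes). Socs3, an inhibitor of JAK signalling, stood at 3.96, 9.23 and 6.04 CPM for WT, 2.59, 2.57 and 1.28 for Tet2-/-, 7.64, 6.25 and 3.31 for Nras(G12D) and 6.74, 17.6 and 12.6 for double mutant libraries (interaction 2.64 ± 0.66). Its Tet2-/- libraries were below the other 9, and double mutant 1 lay in the WT range. Gadd45a and Mdm2, targets of p53, stood at 2.64 ± 0.58 and 1.77 ± 0.57, and Trp53 itself at -0.71 ± 0.24, with 7 of 20 p53 targets above (35%, against 16.9%) and 1 below.

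Below the additive level, the clearest group was that of lymphoid priming, the genes by which part of the LSK fraction starts the lymphoid program. Of 16 tested members 9 were below at an unadjusted p below 0.05 (56.2%, against 7.94% of all tested genes). There was 1 above (6.25%, against 16.9%), and the median interaction was -1.44. The medians against WT were 0.33 for Tet2-/-, 0.44 for Nras(G12D) and -0.37 for the double mutant, and in 4 of 16 all double mutant libraries were below the other 9 (2.82% of all tested genes). The list summed to 6384 to 12073 CPM in WT and 3401 to 6444 in Tet2-/-. In Nras(G12D) the sum was 4019 to 5606 CPM and in the double mutant 3001 to 3450. On that sum Nras(G12D) lay below every WT library, Tet2-/- overlapped WT only at its highest value, and the double mutant overlapped Tet2-/-. Ighm, given below, was a large part of the WT sums. Dntt, the terminal transferase of lymphoid progenitors, stood at 1022, 780.0 and 879 CPM for WT, 949.6, 1084 and 1469 for Tet2-/-, 821, 1473 and 1387 for Nras(G12D) and 419, 324 and 98.4 for double mutant libraries. All 3 double mutant libraries were below the other 9, and the interaction was -2.69 ± 0.62 (limma, adjusted p = 0.14), a level 6.47 times below the additive one. Rag2, a subunit of the recombinase that assembles antigen receptor genes, stood at 21.2, 17.3 and 18.5 CPM for WT, 13.3, 29.1 and 31.9 for Tet2-/-, 18.3, 25.2 and 38.2 for Nras(G12D) and 9.93, 7.30 and 2.60 for double mutant libraries (interaction -2.47 ± 0.68).

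A pair of regulators of that program had the same shape with smaller distances. Rbpj, the DNA-binding partner of Notch, stood at 52.7, 45.4 and 57.2 CPM for WT, 87.7, 58.3 and 101 for Tet2-/-, 49.8, 79.6 and 51.3 for Nras(G12D) and 27.2, 22.9 and 29.8 for double mutant libraries, with an interaction of -1.79 ± 0.36 (limma, adjusted p = 0.14). Mef2c, a factor of lymphoid and dendritic progenitors, stood at 324, 299.8 and 241 CPM in the double mutant, against 369 to 735 CPM in the other 9 libraries (interaction -1.36 ± 0.32). In both genes the double mutant lay below all other libraries. Flt3, Notch1, Ikzf1, Satb1 and Bcl11a, members of the same list, were not at an unadjusted p below 0.05. Ighm, the immunoglobulin heavy chain, was the member above the additive level at 2.41 ± 0.71, with 9384, 3698 and 5081 CPM in WT and 1127, 998 and 1551 CPM in the double mutant, and all 3 mutants were low.

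Lists of lymphoid cell markers also had median interactions below 0, at -1.06 for T and NK cells and -0.65 for B cells. Of 10 tested T and NK cell genes 5 were below (50%, against 7.94% of all tested genes) and none above (against 16.9%). The list summed to 247 to 297 CPM in WT, 416 to 501 for Tet2-/-, 408 to 432 for Nras(G12D) and 291 to 384 for the double mutant, with up to 2 of its 18 members at 0. On that sum both single mutants lay above every WT library, and the double mutant overlapped WT and reached above it. Of 15 tested B cell genes 3 were below (20%, against 7.94%) and 1 above (6.67%, against 16.9%). The B cell list summed to 148 to 223 CPM in WT, 164 to 236 for Tet2-/-, 123 to 171 for Nras(G12D) and 109 to 148 for the double mutant. Cd3e was near 0 throughout, as given above. Lck, a kinase of T cells and their progenitors, stood at 50.4, 53.9 and 44.8 CPM for WT, 70.6, 82.8 and 82.8 for Tet2-/-, 42.4, 91.8 and 89.9 for Nras(G12D) and 42.1, 29.6 and 19.9 for double mutant libraries (interaction -1.94 ± 0.46). Fewer cells of a kind and less RNA per cell cannot be told apart in sorted bulk RNA.

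A further set below the additive level had higher means in both single mutants than in WT, and a double mutant mean below that of each single mutant in all of the genes named here but Gcsam. Emp1, a membrane protein gene responsive to growth factors, stood at 24.7, 23.5 and 25.8 CPM for WT, 27.3, 82.6 and 80.3 for Tet2-/-, 39.2, 98.4 and 74.7 for Nras(G12D) and 27.8, 17.7 and 10.9 for double mutant libraries (interaction -3.11 ± 0.66, limma, adjusted p = 0.14). Double mutant 1 and Tet2-/- 1 were close to WT, and the other 2 double mutant libraries were below it. Cd48, a surface protein that separates multipotent progenitors from long-term stem cells, stood at 149, 158 and 131 CPM for WT, 237, 288 and 426 for Tet2-/-, 251, 299 and 283 for Nras(G12D) and 221, 226 and 197 for double mutant libraries (interaction -1.45 ± 0.29). Here the double mutant lay above WT and below both single mutants, where each single mutant had moved the level up. Cd53, a tetraspanin of white blood cells, and Cst7, a cystatin, had the same order of group means with interactions of -1.32 ± 0.29 and -1.44 ± 0.32. Gcsam, a germinal centre adaptor, stood at 10.9, 9.55 and 15.9 CPM for WT, 33.6, 42.7 and 56.1 for Tet2-/-, 27.1, 24.6 and 22.2 for Nras(G12D) and 30.02, 25.7 and 31.5 for double mutant libraries (interaction -1.63 ± 0.36), so that its double mutant mean lay between those of the single mutants. Arhgdib, a regulator of small GTPases, stood at 884, 859 and 896 CPM for WT, 1391, 1126 and 1608 for Tet2-/-, 1064, 1095 and 925 for Nras(G12D) and 794, 699 and 676 for double mutant libraries, below all other libraries (interaction -1.14 ± 0.22, standard error the smallest of the 16 named genes).

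Housekeeping groups stood slightly below the additive level with narrow errors. Of 19 glycolysis genes 8 were below (42.1%, against 7.94% of all tested genes) and none above (against 16.9%), with a median of -0.30. In 6 of the 19, Gapdh, Gpi1, Pgk1, Tpi1, Ldha and Aldoa, the double mutant libraries were all below the other 9 (2.82% of all tested genes). Gapdh stood at 618, 670.1 and 650.0 CPM for WT, 903, 734 and 994 for Tet2-/-, 705, 881 and 639 for Nras(G12D) and 529, 507 and 419.9 for double mutant libraries (interaction -1.04 ± 0.25, limma, adjusted p = 0.14). Of 20 ribosomal protein genes 9 were below (45%, against 7.94%) and 1 above (5%, against 16.9%), with a median of -0.65. Rplp0 stood at -0.75 ± 0.22, and Rpl13 was the exception at 1.73 ± 0.72. Both groups have many processed pseudogenes that can share reads with the parent gene, so their counts are uncertain. Of 30 interferon-stimulated genes 5 were below (16.7%, against 7.94%) and 1 above (median -0.63), with Rtp4 at -1.01 ± 0.37. The interferon medians against WT were 0.55 in Tet2-/- and -0.18 in the double mutant.

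Dendritic cell and MHC class II genes were above WT in all mutants by their medians. Their medians against WT were 1.77 for Tet2-/-, 1.10 for Nras(G12D) and 2.41 for the double mutant. The median interaction was -0.75 (-1.74 to -0.45 over the other settings), with 4 of 18 below (22.2%, against 7.94% of all tested genes) and 1 above. H2-Aa, an MHC class II chain, stood at 50.8, 83.02 and 94.4 CPM for WT, 254, 567 and 952 for Tet2-/-, 539.6, 101 and 239.8 for Nras(G12D) and 665, 392 and 532 for double mutant libraries (interaction -1.67 ± 0.80, limma, unadjusted p = 0.0591). All 3 double mutant values lay within the Tet2-/- range. For the neutrophil list the median was -1.44, which became 0.08 on leaving out Nras(G12D) 2. The genes of DNA methylation and of polycomb complexes stood near additive with medians of 0.15 and 0.31, both of which changed sign under other settings, among them median centring. Tet3 stood at 1.13 ± 0.43 and Tet1 at -0.62 ± 0.25.

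**Figure D3:**
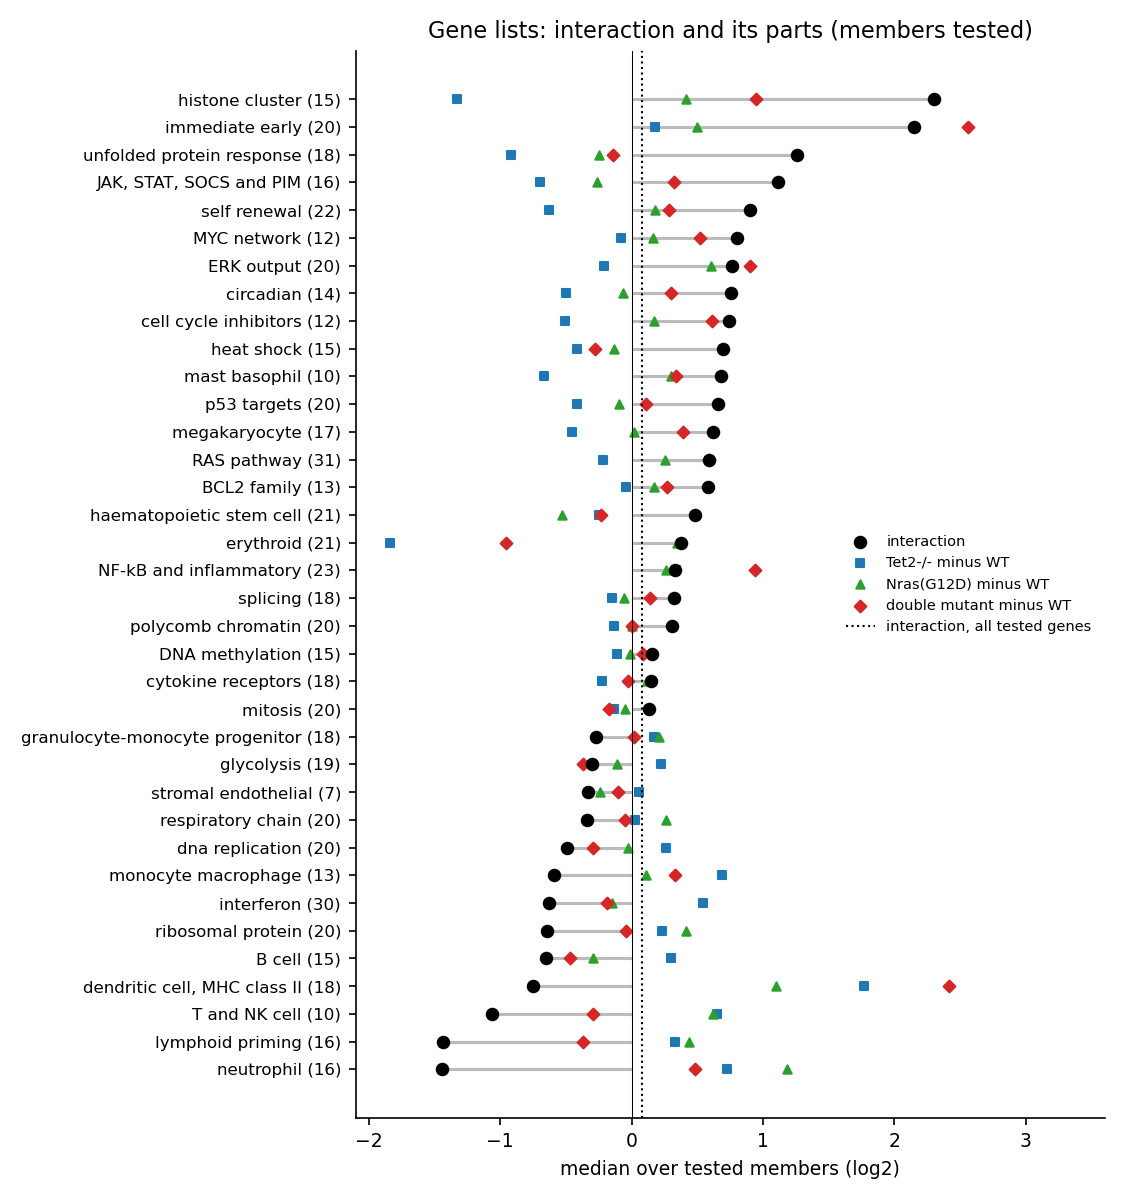
Median over the tested members of 36 gene lists (x axis, log2; number of members tested in brackets) of the interaction (black) and of each mutant against WT (blue, green and red), with the median interaction of all tested genes (0.08) as a dotted line. Immediate early genes are high with the double mutant high (2.56), whereas the unfolded protein response genes are high with Tet2-/- low (-0.91) and the double mutant near WT (-0.14).

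The call of the interaction depended on 2 libraries. Without Tet2-/- 2 there were 1878 calls above (13.7%) and 624 below (4.55%), and without double mutant 1 there were 538 above (3.92%) and 80 below (0.584%). Of these lists, 284 genes were in both, 11.4% of the first and 46.0% of the second, and all 284 had the same direction. The 2 fits share all libraries but these 2, so agreement in direction is largely built in. Leaving out Tet2-/- 1 or Tet2-/- 3 gave 2 calls each, Egr1 and Chst1 both times, and leaving out any of the other 8 libraries gave 0. Without Tet2-/- 2 the Egr1 interaction was 4.66 (limma, adjusted p = 0.00766), that of Jun 5.84 (0.00766), that of Rbpj -2.02 (0.0081) and that of Dntt -2.74 (0.0263). Of 20 immediate early genes 7 were called without Tet2-/- 2 and 8 without double mutant 1. For lymphoid priming the counts were 4 and 7 of 16, for the unfolded protein response 9 and 4 of 18, and for the histone cluster 11 and 0 of 15.

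Tet2-/- 2 was the Tet2-/- library nearest to WT and, with Tet2-/- 1, carried Y-linked transcripts. Library quality weights were lowest for Tet2-/- 2 (0.228), Nras(G12D) 2 (0.243) and Nras(G12D) 1 (0.278), where the geometric mean is 1. With the 8 libraries without Y-linked transcripts alone, a comparison added after the data were seen, 2769 genes were called above and 695 below. There Tet2-/- is 1 library, assumed to vary like the other groups. The median of the immediate early list was then 1.99, that of the unfolded protein response 1.73 and that of lymphoid priming -1.70.

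**Figure D4:**
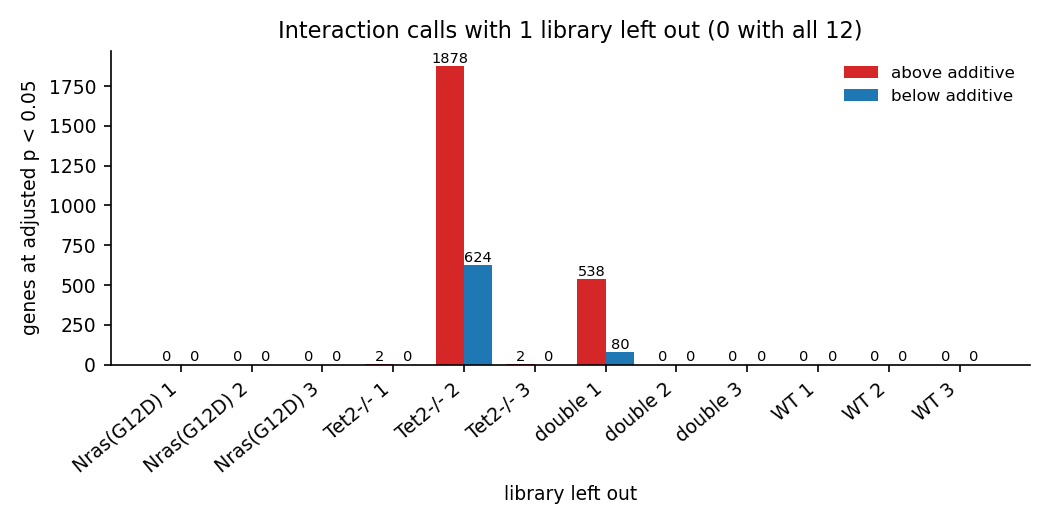
Genes called in the interaction (y axis, number at an adjusted p below 0.05, limma) when 1 library was left out (x axis), above the additive level in red and below it in blue. The 2 tall pairs are 1878 and 624 without Tet2-/- 2 and 538 and 80 without double mutant 1, and every other pair is 2 and 0 or 0 and 0.

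The interaction moved with the base composition of the transcripts. Over 13393 genes with a GENCODE transcript its Spearman correlation with GC content was 0.251, as a description across genes, and that of the Tet2-/- change against WT was -0.306. In the decile of genes with the highest GC content (median 59.1%) the median interaction was 1.13, with 545 genes above and 25 below at an unadjusted p below 0.05. In the lowest decile (39.2%) it was -0.21, with 122 above and 139 below. The median change against WT in the highest decile was -0.79 for Tet2-/-, 0.10 for Nras(G12D) and 0.30 for the double mutant. By library, the level relative to other libraries correlated with GC at -0.286 in Tet2-/- 1 and -0.354 in Tet2-/- 3, against -0.044 in Tet2-/- 2. The part of base composition in the results of single genes was not tested apart from a correction for GC content and length per library. After that correction the median interaction was 0.98 for the immediate early list, 1.02 for the unfolded protein response, 1.38 for the histone cluster, 0.17 for ERK output and -1.54 for lymphoid priming, against -0.20 over all tested genes.

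**Figure D5:**
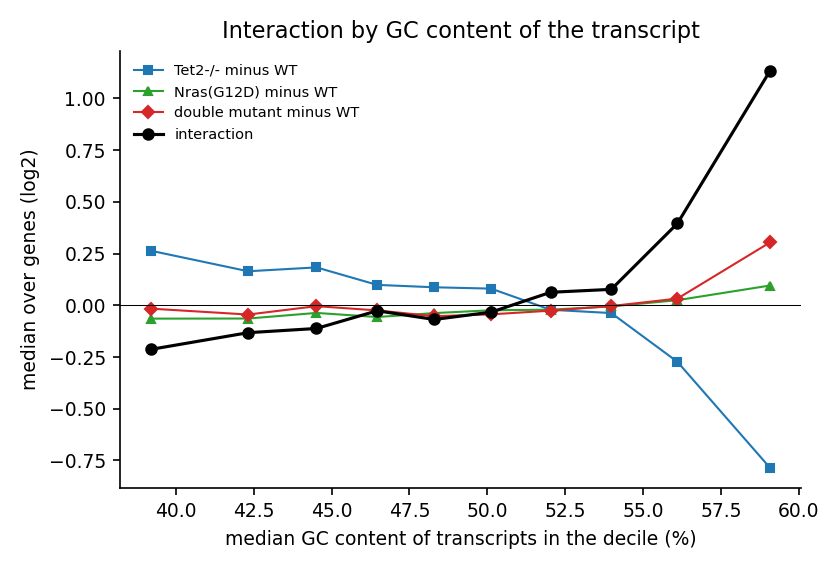
Median log2 value over genes (y axis) in 10 equal groups of genes by GC content of the transcript (x axis, median % of each group), for the interaction (black) and for each mutant against WT. The interaction ends at 1.13 and the Tet2-/- change at -0.79 in the group with the highest GC content, while the Nras(G12D) line ends at 0.10.

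The choice of scaling moved all genes together and so the split of directions. Among genes at an unadjusted p below 0.05, the share above the additive level was 68.0% as deposited, 80.4% when scaled by total counts, 47.3% after quantile normalization, 36.6% after the GC and length correction and 32.7% when each library was centred on its median. The median interaction of all tested genes was 0.08, 0.19, -0.19, -0.20 and -0.34 in these settings. Under all of them the medians of the immediate early, unfolded protein response, histone cluster, JAK and STAT, self-renewal and RAS pathway lists were above 0, and those of the lymphoid priming, T and NK cell, glycolysis, ribosomal protein and interferon lists were below 0.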

How the data were processed

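RNA of sorted LSK cells was sequenced from stranded mRNA libraries, per the labels. The authors deposited 1 value per gene symbol and library on a log2 scale, log2 CPM with 0.5 added to the count. This was read from the values, since whole counts came back within a tolerance of 1e-06. A scaling factor per library (0.81 to 1.12 of the total count) is part of them. The submitters' processing notes name STAR 2.4.0f1, edgeR 3.14.0, limma 3.28.21 and the builds mm10 and NCBIM37. No source used here gives the counting tool or its use of strand, so overlapping and antisense genes cannot be separated.

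Columns were matched to samples by their description labels, N2-3 being taken as Nras(G12D) 2. The 12 libraries were fitted with limma 3.58.1 in R 4.3.3 (a mean per genotype, eBayes with intensity trend, 8 residual degrees of freedom, two-sided, Benjamini-Hochberg over 13710 genes, threshold 0.05). Estimates are log2 ± standard error, which understates changes of low genes. CPM values were computed from the recovered counts. Where no read was counted, the limit is 3 counts (0.0775 to 0.127 CPM by library), for counting error alone. The fit was tested on simulated data. Library scaling, filter, added count, weights, variance prior, replicate block, GC and length, Y-linked genes and single libraries were varied.

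Members and gene lists were chosen with earlier results of these data known. Of genes whose highest group mean reached the median of such means and whose sign held without each library, the 8 with the smallest p in each direction were named, with Tet2, Nras and the member of each list with the smallest p. Unnamed models, pseudogenes, antigen receptor segments, mitochondrial and sex-linked genes were left out. Other list members, and Chst1 and Tdpx-ps1, were named after their values were seen. A few genes the rule or the lists would name are not reported here. Promoters are RefSeq sequences (GRCm38.p6), and GC content and length come from GENCODE vM21.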

Additional observations from a re-analysis of the deposited data

How the results depend on the processing

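The counts of calls, the list medians and the interaction of each gene given with a value were recomputed under 31 other settings (30 for Mras and Fosl1, which fall below the stricter filter). The count of interaction calls, 0 as reported, was 4 with median centring (Egr1, Jun, Chst1 and Tnfsf8), 1 with eBayes without trend (Tdpx-ps1), 5853 with voom and sample quality weights, 6607 with array quality weights, 0 to 2502 with 1 library left out and 3464 in the 8 libraries without Y-linked transcripts, and 0 in the other settings. The count at an unadjusted p below 0.05, 3402 as reported, was 7291 and 7720 with the sample and array weights, 2095 to 5108 with 1 library left out and 5535 without the Y-linked libraries. The double mutant against Tet2-/-, 4995 calls as reported, gave 2733 without the filter, 8672 and 8837 with the weights, and 1159 to 6634 with 1 library left out. Nras(G12D) against WT, 0 calls as reported, gave 29 without the filter, 1 with either weighting, 2 without the Y-linked libraries and 0 to 9 with 1 library left out. The Tet2 interaction reversed to -0.18 with median centring, -0.022 with quantile normalization and -0.079 without the Y-linked libraries. With quantile normalization Hsp90b1 reversed to 0.10 and Calr to 0.28, Calr ran from -0.37 to 0.013 with 1 library left out and changed sign only without double mutant 3, and Btg2 was 15.7 CPM above additive on the CPM scale. No other gene given with an interaction reversed. For the 16 genes named by smallest p, a sign that held without each library was a condition of the choice. Genes named without an interaction value were not recomputed. Of 18 pairs of same-numbered libraries, 11 deviated together with a correlation over 0.1 (range -0.361 to 0.307), among them all 6 of replicate 2 (0.112 to 0.307) and all 3 of Tet2-/- with the double mutant (0.112 to 0.139). The numbers therefore did not pair all genotypes, but met that threshold for this contrast. With the replicate block there were 0 interaction calls (3552 at an unadjusted p below 0.05) and 4730 in the double mutant against Tet2-/-, and with the block and the GC and length correction again 0 interaction calls. With a replicate block within Tet2-/- and double mutant libraries only, added after the data were seen, these counts were 0, 3424 and 4577. With 3 libraries per genotype the median standard error of the interaction was 0.46 log2 units.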

Other observations

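The 3 leukemic double mutant libraries lie outside the comparison and are given as values. Egr1 stood there at 23.8, 21.6 and 149.7 CPM, Jun at 41.8, 91.3 and 375, Dusp1 at 22.03, 24.7 and 152 and Ier2 at 146, 132 and 227. In all 3 leukemic libraries Egr1, Jun and Ier2 were below their lowest non-leukemic double mutant value, Jun in the third at 375 against 379 CPM. Dusp1 was below its lowest such value in the first 2 but not in the third. Dntt stood at 338, 68.2 and 298 CPM, Rbpj at 44.9, 40.9 and 31.9 and Gcsam at 5.01, 3.79 and 3.99. Gcsam, at 25.7 to 31.5 CPM in the non-leukemic double mutant, was lower in all 3. These libraries carry a further label (BMT) whose meaning was not established here, and it cannot be told apart from leukemia.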
